A study of Mus musculus with 4 samples.

Results

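The cells described here were CD8+ T cells with a transcript of a naive T cell gene that stood in the deposited raw table of CD45+ cells from EO771 mammary tumors but not in the deposited normalized table, which holds the cells the authors kept. EO771 is a mouse mammary carcinoma line, grown here in the mammary fat pad of female mice, and CD45 marks cells of blood origin. The cells were chosen by their measured transcripts and hashtags. A barcode was taken when mitochondrial genes gave under 5% of its UMIs (unique molecular identifiers, 1 for each captured transcript) and the higher of its hashtag counts was at least 3 times the other. It also had at least 1 UMI of Cd3d, Cd3e or Cd3g, at least 1 of Cd8a or Cd8b1 and at least 1 of Lef1, Tcf7 or Dapl1, none of Cd4, Foxp3, Cd79a or Ms4a1, and under 100 UMIs of S100a8 and S100a9 per 10000. The rule found 1026 of 53361 barcodes, of which 24932 were not kept.

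The study compared Csf1r fl/fl mice, whose Csf1r alleles carry loxP sites but no Cre, with Lyve1Cre Csf1r fl/fl mice, in which Cre driven by the Lyve1 locus can delete Csf1r, the receptor for colony stimulating factor 1, in Lyve1-expressing cells. Tumors were taken at 1.5 cm3 from 2 mice of each genotype. Each of 2 Chromium runs (10x Genomics, 3′ chemistry) pooled 1 tumor of each genotype, so the run number pairs a Csf1r fl/fl with a Lyve1Cre Csf1r fl/fl tumor. The authors kept hashtag singlets with low mitochondrial content, and then removed 4 clusters in which over 90% of cells came from 1 of the 4 samples, which they named as the Lyve1Cre Csf1r fl/fl tumor of run 2. The share of this tumor in the cells below cannot be separated from that removal. The number of removed cells per tumor and any contrast of removed with kept cells were therefore part of how the cells were chosen, and are given as descriptions with no test.

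A naive CD8+ T cell has left the thymus and not yet met its antigen. Such cells move between blood and lymph nodes with the help of the chemokine receptor Ccr7 and the exit receptor S1pr1, and are kept quiescent by Klf2 and by the transcription factors Tcf7 and Lef1. After antigen they lower these genes, divide, and make granzymes, chemokines and interferon gamma. Lef1 lies on chromosome 3 (131110471 to 131224356, + strand), Tcf7 on chromosome 11 (52252371 to 52283014, - strand), Dapl1 on chromosome 2 (59484653 to 59505020, + strand), Nsg2 on chromosome 11 (32000463 to 32059202, + strand) and Cd8b1 on chromosome 6 (71322788 to 71337494, + strand), all as whole gene spans on mm10.

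The tumors of a run were told apart only by the antibody-borne hashtag oligonucleotide on each cell. The sequences of both hashtags are shown because the identity of every cell below rests on them, and capitals mark the 11 of 15 positions at which they differ.
A0301: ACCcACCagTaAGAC
A0302: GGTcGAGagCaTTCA
A0301 labelled the Csf1r fl/fl tumor in run 1 and the Lyve1Cre Csf1r fl/fl tumor in run 2, and A0302 labelled the other tumor of each run, so neither hashtag stood for a genotype.

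Values by tumor are given throughout in the order Csf1r fl/fl run 1, Csf1r fl/fl run 2, Lyve1Cre Csf1r fl/fl run 1 and Lyve1Cre Csf1r fl/fl run 2. The tumors held 38, 102, 90 and 796 of the gated cells. These were 0.313% (95% exact binomial interval 0.222% to 0.430%), 0.788% (0.643% to 0.956%), 0.643% (0.518% to 0.790%) and 5.58% (5.21% to 5.97%) of their barcodes. The intervals cover counting error only. The Lyve1Cre Csf1r fl/fl run 2 tumor thus gave 77.6% of the cells, and the other Lyve1Cre Csf1r fl/fl tumor lay between the Csf1r fl/fl tumors. All 4 tumors had such cells. Kept barcodes that met every other condition of the rule numbered 232, 176, 195 and 325. A total of 200 barcode sequences occurred in both runs, 7 gated cells carried one of them, and in no case were both cells of such a pair gated.

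The label naive CD8+ T cell held for most of these barcodes and not for all of them. Demultiplexing of the hashtags alone with HTODemux, which calls a hashtag positive above its background, classed 764 barcodes as singlets, 258 as doublets with both hashtags and 4 as negative. By tumor there were 16, 19, 31 and 698 singlets and 21, 83, 58 and 96 doublets. Doublets made up 55.3%, 81.4%, 64.4% and 12.1% of the gated cells, so they were the larger class in 3 tumors and the smaller one in the Lyve1Cre Csf1r fl/fl run 2 tumor. With doublets left out, that tumor gave 91.4% of the cells. These classes are not the authors' calls. Of the 28429 barcodes the authors kept, HTODemux classed 657 as doublets and 585 as negative. Of these doublets, 555 were in the Csf1r fl/fl run 1 tumor. Kept cells used for comparison below were not limited to singlets unless stated.

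The classes also differed in RNA content, which the gate had not used. Median UMIs per cell were 2837, 4905, 2810 and 2902.5 in singlets against 19611, 12405, 9911.5 and 12938 in doublets. Median detected genes were 867, 1421, 1014 and 1137 in singlets and 4088, 3419, 2602 and 3231.5 in doublets. The doublets were therefore the deeper barcodes in every tumor. The hashtag ratio itself was used by the gate and by the classes, and its median was 38.5 over all singlets and 4.10 over all doublets. Just inside the threshold of 3, 126 cells had a ratio below 4, of which 122 were doublets. Just outside it, 175 otherwise eligible barcodes had a ratio of 2 to 3, and all were doublets.

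**Figure D1:**
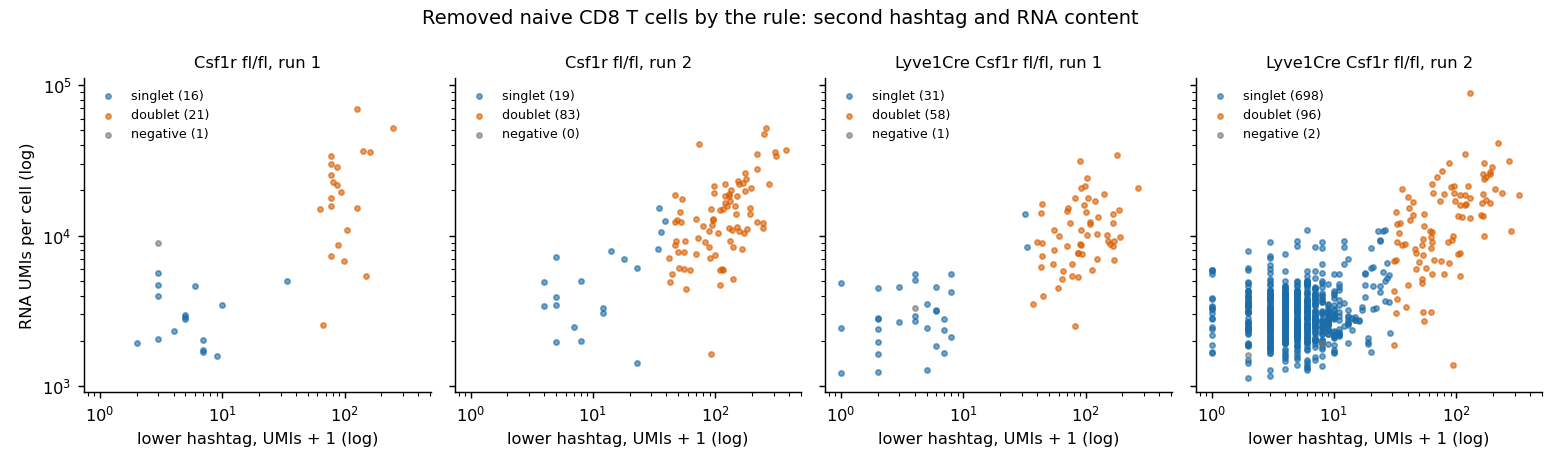
RNA UMIs per cell against UMIs of the lower hashtag plus 1, both on log axes, 1 panel per tumor and 1 point per gated cell, colored by HTODemux class. Singlets lie at low counts of the second hashtag (medians 4, 11, 3 and 4) and doublets at high counts (86, 116, 90.5 and 74.5) and higher RNA content, and the Lyve1Cre Csf1r fl/fl run 2 tumor has 698 singlets against 16 to 31 in the others.

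Macrophage and class II transcripts followed the doublet class. A macrophage marker list summed to 4.65, 24.1, 17.2 and 7.37 UMIs per 10000 in singlets and to 85.8, 75.3, 41.2 and 66.6 in doublets. The macrophage list was higher in doublets in every tumor, without overlap. C1qa, a complement component made by macrophages, had 0, 0, 0.0903 and 0.195 UMIs per 10000 in singlets against 4.65, 4.26, 0.850 and 1.90 in doublets. The invariant chain Cd74, expressed by antigen-presenting cells, had 0.607, 4.65, 0.542 and 2.18 against 32.4, 23.6, 24.8 and 25.3. The B cell list, which holds Cd74 and the class II genes H2-Aa and H2-Ab1 that macrophages and dendritic cells also express, summed to 2.43, 10.7, 2.89 and 8.45 in singlets and to 59.1, 46.0, 45.6 and 57.7 in doublets. Of its immunoglobulin genes, Ighm had 1.21, 0.638, 1.90 and 2.91 UMIs per 10000 in singlets and 0.519, 0.770, 0.626 and 0.942 in doublets, and Igkc had 0, 1.73, 0.181 and 1.15 against 0.560, 0.556, 0.0597 and 9.56. Unlike the class II genes, these were not higher in the doublets of every tumor. Results below are therefore given for singlets first, or both with and without doublets. The depth behind them was uneven, with 49457, 109683, 110762 and 2261145 UMIs summed over the singlets of each tumor.

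The gate genes are given first for the singlets. Lef1 stood at 3.24, 2.10, 2.89 and 3.69 UMIs per 10000, Tcf7 at 7.28, 2.83, 5.15 and 6.94, and Dapl1, a marker of quiescent T cells, at 3.24, 2.92, 3.61 and 5.10. These 3 genes chose the cells, and their levels are a description. Over all gated cells Tcf7 was detected in 870, Lef1 in 599 and Dapl1 in 565, and all 3 together in 279. At the threshold, 125 cells had a single UMI of the 3 genes, 161 had 2 and 740 had 3 or more, while 317 otherwise eligible cells outside had none.

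Homing and quiescence genes that the gate did not use were present as well. For comparison, kept CD8+ T cells were gated in the same way and split into those with and those without a UMI of Lef1, Tcf7 or Dapl1. S1pr1, the receptor that lets T cells leave lymphoid tissue, had 1.82, 1.55, 2.26 and 3.92 UMIs per 10000 in the removed singlets, against 0.0347 to 0.127 over the 4 tumors in kept CD8+ T cells without a naive gene. Satb1, a chromatin organizer of T cells, had 5.05, 4.01, 5.24 and 6.48 against 0.188 to 0.435. For both genes the lowest tumor of removed singlets lay above the highest tumor of the kept cells. Nsg2, one of the markers given for these cells, had 1.01, 0.456, 0.632 and 1.53 against 0.0139 to 0.0676. Klf2, which drives S1pr1, had 8.69, 1.64, 3.52 and 8.08, so it was lowest in the Csf1r fl/fl run 2 tumor.

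**Figure D2:**
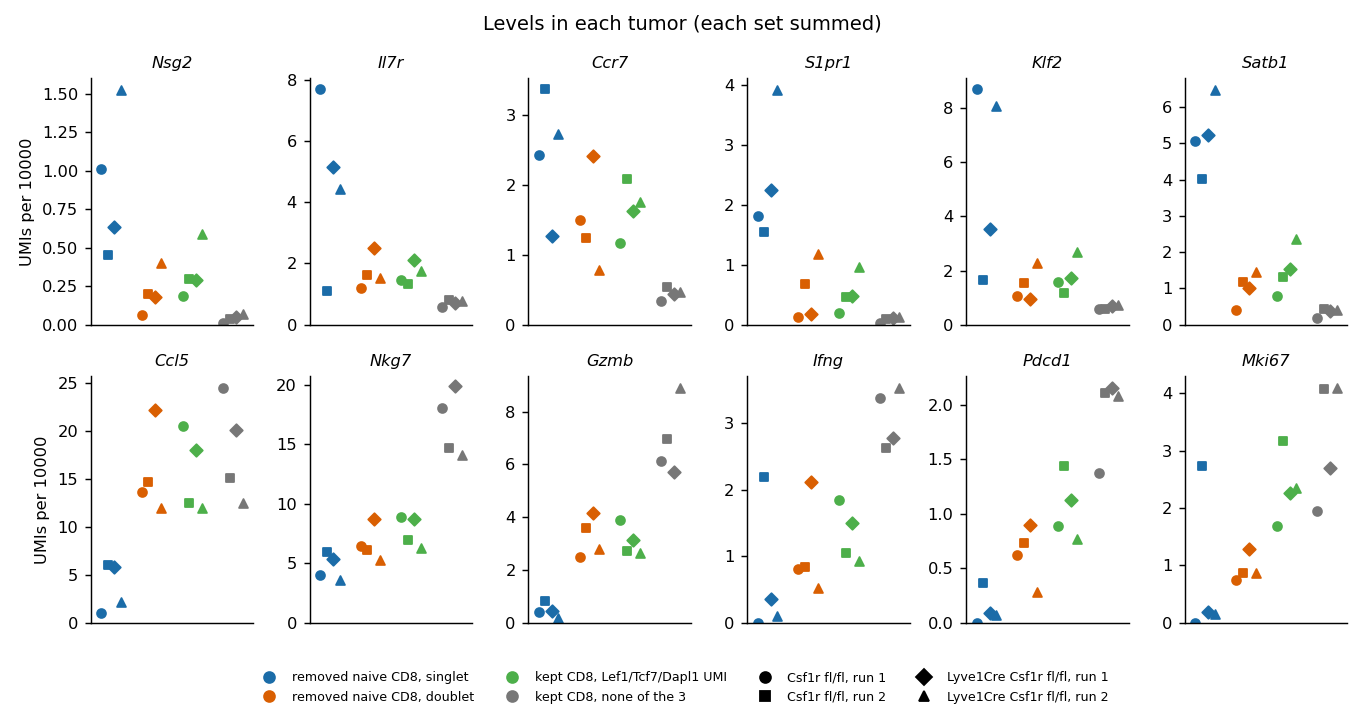
Levels of 6 naive, homing and survival genes (top row) and 6 effector or proliferation genes (bottom row) in UMIs per 10000 on linear axes, 1 point per tumor, in removed singlets, removed doublets and both sets of kept CD8+ T cells. S1pr1 and Satb1 of the removed singlets lie above all tumors of kept CD8+ T cells without a naive gene, and Gzmb and Pdcd1 lie below them.

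Over the naive T cell list, 20 of 20, 19 of 20, 18 of 19 and 21 of 21 measured genes were higher in removed singlets than in kept CD8+ T cells without a naive gene of the same tumor. The median log2 ratio was 2.11, 1.71, 2.18 and 2.47, beside -0.45, -0.22, -0.36 and -0.17 over all genes, of which 28.1% to 38.8% were higher. Against kept CD8+ T cells that did have a naive gene, the median was 1.24, 0.67, 1.26 and 1.17. The 3 gate genes belong to the list and were left out of these counts and medians. Of all gated cells, doublets included, the median against kept cells without a naive gene was 0.83, 1.23, 1.41 and 2.24.

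Effector genes were low in the removed singlets. Of the effector and cytotoxic list, 2, 2, 0 and 0 of 24 genes were higher than in kept CD8+ T cells without a naive gene, with a median log2 ratio between -2.80 and -1.39 by tumor. Granzyme B (Gzmb) had 0.404, 0.821, 0.451 and 0.172 UMIs per 10000 against 6.12, 6.96, 5.69 and 8.89. The inhibitory receptor gene Pdcd1 had 0, 0.365, 0.0903 and 0.0663 against 1.37, 2.11, 2.15 and 2.08. In both genes all 4 tumors of removed singlets lay below all 4 of the kept cells. Of 12 exhaustion and checkpoint genes 0, 1, 0 and 0 were higher, and of 15 cell cycle genes 0, 2, 0 and 0. Of 12 genes for the metabolism of activated T cells, 1 was higher in each tumor. Against kept CD8+ T cells with a naive gene, 2, 4, 0 and 0 of 23 effector genes were higher. The median log2 ratios of that list were -2.49, -0.61, -1.39 and -1.78. In that comparison 0, 3, 0 and 0 of 12 exhaustion and checkpoint genes were higher, and 0, 3, 0 and 0 of 15 cell cycle genes. The medians of these 2 lists were both -0.32 in the Csf1r fl/fl run 2 tumor.

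The 19 singlets of the Csf1r fl/fl run 2 tumor differed from the others in several of these genes. All 15 cell cycle genes were higher in them than in that tumor's doublets, against 0 of 13, 1 of 15 and 0 of 15 in the other tumors. Over all genes, 32.3%, 44.4%, 38.2% and 45.9% were higher in singlets than in doublets by tumor. Interferon gamma (Ifng) had 0, 2.19, 0.361 and 0.106 UMIs per 10000 in removed singlets, and the proliferation gene Mki67 had 0, 2.74, 0.181 and 0.159. In kept CD8+ T cells without a naive gene, Ifng had 3.38, 2.62, 2.78 and 3.53 and Mki67 had 1.96, 4.08, 2.70 and 4.09. The interleukin 7 receptor gene Il7r, which supports naive T cell survival, had 7.68, 1.09, 5.15 and 4.44 and was lowest in the same tumor. These singlets also had the highest median UMI count. Their values rest on 109683 UMIs, and the part of undetected doublets of cells with the same hashtag was not tested.

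Chemokine and cytotoxic transcripts were not absent. Ccl5, made by memory and effector T cells, had 1.01, 6.02, 5.87 and 2.14 UMIs per 10000 in removed singlets and 24.6, 15.1, 20.1 and 12.5 in kept CD8+ T cells without a naive gene. Nkg7, a granule protein gene, had 4.04, 5.93, 5.33 and 3.59 against 18.1, 14.7, 19.9 and 14.1. Free RNA in a droplet can give UMIs to cells that do not express a gene, so the shares of cells were set beside kept neutrophils after thinning each cell to 1000 UMIs. In the Lyve1Cre Csf1r fl/fl run 2 tumor, where median depth was 2902.5 UMIs in the singlets and 1884 in neutrophils, Nkg7 was found in 28.7% of singlets and 1.78% of neutrophils. Ccl5 was found in 11.3% and 7.54%, and S1pr1 in 32.7% and 1.33%. Lef1 was found in 30.1% and 0.148%, but the gate used Lef1, so its share is a description. Among Nkg7, Ccl5 and S1pr1, the Ccl5 share thus lay closest to that of the neutrophils.

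Within the 698 singlets of this tumor, the cells with Ccl5 were compared with the rest as a description. After thinning, 79 cells had a Ccl5 UMI and 619 had none. Cells with Ccl5 had 10.9 UMIs per 10000 of Ly6c2, which is raised on memory CD8+ T cells, against 5.85 in the rest. Ly6c2 has a close copy, Ly6c1, so its values are uncertain. Cxcr3, a chemokine receptor of memory and effector cells, had 0.633 against 0.113, and Il2rb, a receptor chain for interleukins 2 and 15, had 2.15 against 1.03. Ccr7 was lower, at 1.27 against 3.07, as was S1pr1 at 2.53 against 4.41. Gzmb was 0.253 and 0.113. The cells with Ccl5 had also been deeper before thinning, with a median of 3836 against 2851 UMIs.

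Ribosomal protein genes, the feature by which the study described the removed clusters, were high in the singlets of every tumor. They gave 44.1%, 30.3%, 41.5% and 37.3% of the UMIs of removed singlets, against 24.9%, 22.5%, 29.1% and 25.6% in doublets and 27.2%, 24.1%, 29.5% and 25.1% in kept CD8+ T cells without a naive gene. Of the measured ribosomal protein genes, 76 of 80, 75 of 80, 74 of 79 and 73 of 79 were higher in the removed singlets than in those kept cells. The share was largest in the Csf1r fl/fl run 1 tumor and not in the tumor that gave most of the cells. The singlets of the Lyve1Cre Csf1r fl/fl run 2 tumor were highest in the heat shock gene Hspa1b, with 5.66, 1.37, 5.51 and 13.2 UMIs per 10000 over the tumors. Removed CD4+ singlets of that tumor had 19.4 and kept CD8+ T cells without a naive gene 3.34. Immediate early genes, which respond within minutes to stimulation or tissue handling, were higher than in those kept cells for 12, 14, 11 and 13 of 14 genes.

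T cell receptor variable genes were counted as a further description. In the singlets of the Lyve1Cre Csf1r fl/fl run 2 tumor, 152 UMIs of beta chain variable genes (Trbv) fell on 21 of 35 genes, and the most frequent, Trbv20, took 13.2%. The effective number of genes, the inverse of the summed squared shares, was 14.8. In kept CD8+ T cells without a naive gene the most frequent Trbv gene took 66.1% of 634 UMIs in the Csf1r fl/fl run 1 tumor (Trbv20), 34.5% in that of run 2 (Trbv2), 34.7% in the Lyve1Cre Csf1r fl/fl run 1 tumor (Trbv17) and 19.6% in that of run 2 (Trbv16). The effective numbers in these kept cells were 2.18, 4.50, 6.17 and 8.49. In kept CD8+ T cells with a naive gene of the Lyve1Cre Csf1r fl/fl run 2 tumor, the set most like the removed singlets, the most frequent gene took 17.7% and the effective number was 12.1. The alpha chain had 134 UMIs on 40 of 128 Trav genes in the removed singlets, Trav16 first at 12.7%, and an effective number of 19.1. In kept CD8+ T cells without a naive gene the most frequent Trav gene took 61.4%, 42.5%, 17.4% and 32.7% by tumor, with effective numbers of 2.54, 3.11, 9.97 and 6.32. Kept cells with a naive gene of the Lyve1Cre Csf1r fl/fl run 2 tumor had 14.3% and 13.1. The number of UMIs differed between these sets, and the differences were not tested. The other tumors' singlets had too few Trbv UMIs, 2 to 8, to be described. Trav genes in particular have near-identical copies between which the counting could split reads, and no clones were called.

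**Figure D3:**
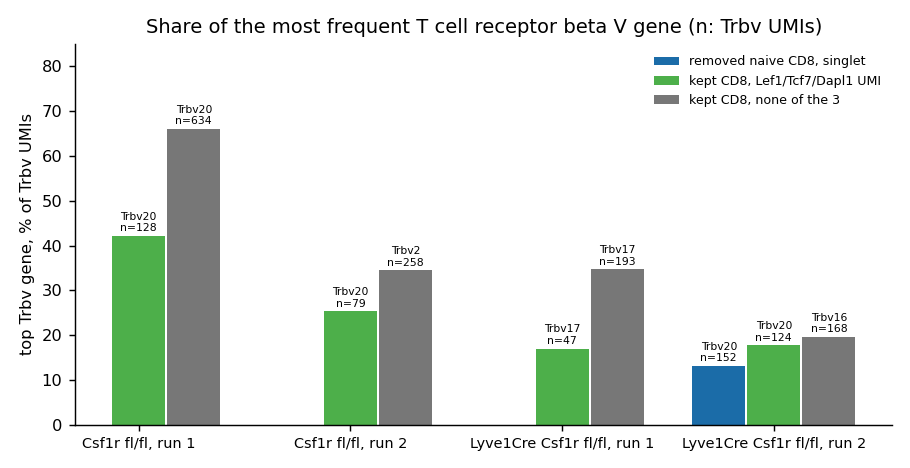
Share of Trbv UMIs taken by the most frequent Trbv gene in each tumor, as bars from 0, for removed singlets and kept CD8+ T cells, with the gene and the number of UMIs above each bar and sets under 40 UMIs left out. The removed singlets of the Lyve1Cre Csf1r fl/fl run 2 tumor have the lowest share, 13.2%, and kept cells without a naive gene of the Csf1r fl/fl run 1 tumor the highest, 66.1%.

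The largest differences from kept CD8+ T cells without a naive gene were ranked in the tumor with most cells. The genes highest over all gated cells included S1pr1 (log2 ratio 3.71), Ighg2c, Igfbp4, Satb1, Cmah, Klf2, Nsg2, Igkc, Klf3, Gm2682 and Cxcl2. In singlets S1pr1 stood at 4.15, whereas the immunoglobulin genes Ighg2c and Igkc went from 3.40 to 0.27 and from 2.54 to 0.70, and the neutrophil and macrophage chemokine Cxcl2 from 2.14 to 0.10. The last 3 were thus high in doublets. The genes lowest were Gzmf (-4.25), Ccl1 (-4.17), Ifng, Lag3, Pdcd1, Klrc1, Rgs16, Tnfrsf9, Mki67, Gzmb, Gm36723 and Nrgn. Most of these are effector, checkpoint or proliferation genes, and Gzmb stood at -2.82 over all gated cells and -5.04 in singlets.

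Removed CD8+ T cells were next compared with removed CD4+ T cells that passed the same gates with the CD4 and CD8 conditions exchanged, which leaves out of the results only Cd4, Cd8a and Cd8b1. This asked how the lineages differed among the cells the authors removed. Tumors with at least 10 cells of both sets entered, which left 3 tumors, with 102, 90 and 796 CD8+ and 34, 15 and 329 CD4+ cells for Csf1r fl/fl run 2 and Lyve1Cre Csf1r fl/fl runs 1 and 2. UMIs were summed per tumor and set and tested with edgeR with the tumor as block. Of 8234 genes, 36 passed an adjusted p of 0.05 (0.437%), 27 higher in CD8+ cells (0.328%) and 9 lower (0.109%). In 35 of them the sign was the same in every tumor.

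The genes higher in CD8+ cells included effector and killer cell genes. Nkg7 had 6.11, 8.25 and 4.23 UMIs per 10000 in the CD8+ and 2.15, 0.786 and 0.477 in the CD4+ cells of the 3 tumors. The sets did not overlap, and the log2 fold change was 2.56 ± 0.32 (SE, n = 3 tumors, edgeR adjusted p = 0.00332). Ifng had 0.943, 1.86 and 0.265 against 0.240, 0.131 and 0.0415, with a log2 fold change of 2.58. The lymphotactin gene Xcl1 (1.99), the natural killer receptor genes Klrc1 (2.11) and Cd160 (2.34), and the adhesion receptor gene Adgrg5 (2.98) rose as well. Of the effector and cytotoxic list, 8 of 22 tested genes rose, beside 0.328% over all genes. In singlets 0 of its 16 tested genes passed. The rest of the 12 largest rises were Mmp13 (4.88), Saa3 (3.61), Trgv2 (3.11), Lcn4 (2.98), Mmp12 (2.36) and Hist1h2ae (2.18). Matrix metalloproteinases and Saa3 are products of macrophages and stroma, and none of these 6 genes could be tested in singlets, where too few UMIs remained. CD4+ cells had to lack Cd8a and Cd8b1, so a doublet with these transcripts could enter only the CD8+ set. CD8+ cells had to lack Cd4, so a doublet with Cd4 could likewise enter only the CD4+ set. In the run 2 tumors, Csf1r fl/fl first, Ifng had 129 and 97 UMIs in all CD8+ cells and 24 and 24 in singlets. Xcl1 had 431 and 340 against 70 and 95, and Nkg7 836 and 1551 against 65 and 811. How much of each rise came from doublets was not tested.

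The genes lower in CD8+ cells included known CD4+ T cell genes. The CD40 ligand gene Cd40lg, which CD4+ helper cells use to activate B cells, had 0.0292, 0 and 0.0546 UMIs per 10000 in CD8+ and 0.335, 0.131 and 1.01 in CD4+ cells. Its log2 fold change was -4.13, on 4, 0 and 20 UMIs in the CD8+ cells. Izumo1r, the folate receptor gene of regulatory and anergic CD4+ cells, fell by 2.14, the T cell receptor adaptor gene Trat1 by 2.54 and the integrin gene Itga6 by 2.06. Ly6c1 (-4.08), A630023P12Rik (-2.80), Tmem64 (-2.05), Igfbp4 (-1.98) and Trib2 (-1.93) made up the rest. How much of each fall came from doublets was not tested. Ly6c1 has a close copy, Ly6c2, and reads could be shared between them, which was not examined, so both values are uncertain. Ly6c2 went the other way in singlets of the run 2 tumors, Csf1r fl/fl first. It had 13.4 and 7.87 UMIs per 10000 in CD8+ and 11.8 and 0.505 in CD4+ cells, and did not pass. Of the 21 tested genes of the naive T cell list that the gate did not use, 1 rose (Ccr9, 3.61, the gut-homing receptor gene, which was the 1 call whose sign differed between tumors) and 1 fell (Igfbp4), beside 0.328% and 0.109% over all genes. With the gate genes counted, 4 of 24 genes of this list had a positive log2 fold change, with a median of -0.36. Over all genes 4042 of 8234 were positive. In singlets 4 of 23 genes of the list were positive, with a median of -0.42.

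**Figure D4:**
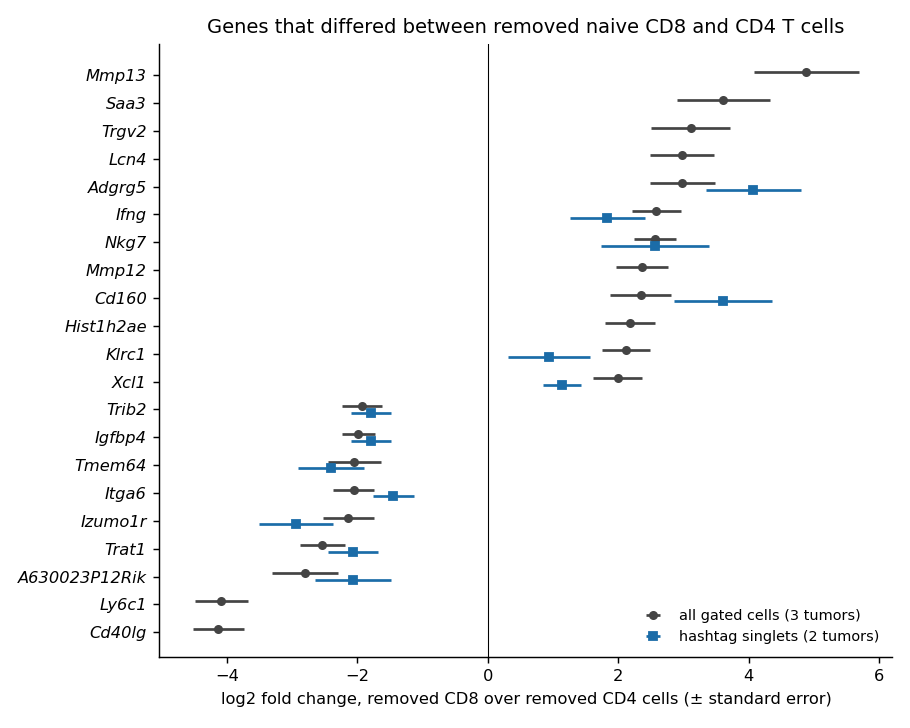
log2 fold change, removed CD8+ over removed CD4+ T cells, with SE from edgeR, for the named genes, over all gated cells (3 tumors) and over hashtag singlets (2 tumors). Every gene with a singlet value lies on the same side of 0 in both fits, such as Nkg7 (2.56 in each) and Trat1 (-2.54 and -2.06).

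Without doublets, 2 tumors kept at least 10 cells of both sets. Of 5440 genes, 0 passed the adjusted p of 0.05 in edgeR, 157 had an unadjusted p under 0.05, and the lowest adjusted p was 0.541. Of the 36 genes, 26 could be tested, all 26 had the same sign and 22 had an unadjusted p under 0.05, from cells that are in both fits. In the 698 CD8+ and 315 CD4+ singlets of the Lyve1Cre Csf1r fl/fl run 2 tumor, Nkg7 had 3.59 and 0.144 UMIs per 10000. Runx3, the transcription factor that sets the CD8 lineage, had 3.31 and 0.926. Ccr9 had 1.22 and 0.0601, Cd40lg 0.0486 and 1.13, and Igfbp4 1.27 and 3.99. Lef1 was at 3.69 and 5.95. These values are of 1 tumor and have no replicate. Taking the tumor out as a block from the fit over all gated cells left 0 calls in edgeR, with 156 genes at an unadjusted p under 0.05.

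The study's genotypes were then compared within the gated cells, with UMIs summed per tumor and 2 tumors of each genotype. All genes that passed were lower in Lyve1Cre Csf1r fl/fl. Of 8053 genes, 7 passed an adjusted p of 0.05 in edgeR (0.0869%), namely Ccl12, Ccl7, C1qc, C1qa, Hmox1, Ccl2 and Ms4a7, and 0 were higher. Ccl12, a monocyte chemokine, had 9.57, 6.71, 0.765 and 1.02 UMIs per 10000, with a log2 fold change of -3.06 ± 0.38 (SE, n = 2 tumors a genotype, edgeR adjusted p = 0.0186). C1qa had 4.15, 3.92, 0.739 and 0.845, with a log2 fold change of -2.22 ± 0.34 (edgeR adjusted p = 0.0358). The genotypes did not overlap in either gene. Of the 12 genes of the macrophage and monocyte list, 2 passed (C1qa and C1qc), and the median log2 fold change of the list was -1.17. The other log2 fold changes were -2.36 (Ccl7), -2.30 (C1qc), -2.22 (Hmox1, heme oxygenase), -2.19 (Ccl2) and -2.08 (Ms4a7).

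These transcripts came mostly from the doublets. Of the C1qa UMIs, the 4 tumors' doublets held 224, 537, 57 and 266 and their singlets 0, 0, 1 and 44. Of the Ccl12 UMIs, doublets held 517, 859, 60 and 345 and singlets 0, 60, 0 and 30. These counts do not compare levels, since total UMIs differed, at 1259106 in doublets and 109683 in singlets of the Csf1r fl/fl run 2 tumor. A doublet with both hashtags holds cells of both tumors of its run, and therefore of both genotypes, and was counted here under its higher hashtag. The tumor and genotype from which its macrophage RNA came are not defined, so the 7 calls cannot be read as a difference between macrophages or T cells of the genotypes. A C1qa UMI was found in 13 of 21, 39 of 83, 9 of 58 and 28 of 96 doublets. C1qa stood at 4.65, 4.26, 0.850 and 1.90 UMIs per 10000 in them by higher hashtag. None of the 7 genes could be tested in singlets. With a hashtag ratio of at least 10, which left 755 cells of which 18 were doublets, 7 of 1800 genes passed in edgeR (0.389%), again all lower in Lyve1Cre Csf1r fl/fl. These were Wfdc17, Cxcl2, Bcl2a1b, Ccl3, S100a9, Basp1 and Marcksl1, none of which passed over all gated cells, and none of the first 7 passed there. S100a9 was used by the gate, so its value is a description. Cxcl2, abundant in neutrophils, could be tested in singlets, with a log2 fold change of -1.58 that did not pass. At this ratio Cxcl2 had 20.7, 54.4, 1.76 and 3.55 UMIs per 10000 by tumor, and in singlets 3.24, 7.11, 1.53 and 1.80. The 7 calls at this ratio thus cannot be read as free of doublets. With the run as block 518 genes passed (6.43%), 212 higher (2.63%) and 306 lower (3.8%). On 4 tumors, the fit with this block had little left from which to estimate its error. With the Csf1r fl/fl run 2 tumor left out the count was 0, and with the Lyve1Cre Csf1r fl/fl run 1 tumor or run 2 left out it was 455 or 62, and 5 without the other Csf1r fl/fl tumor.

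**Figure D5:**
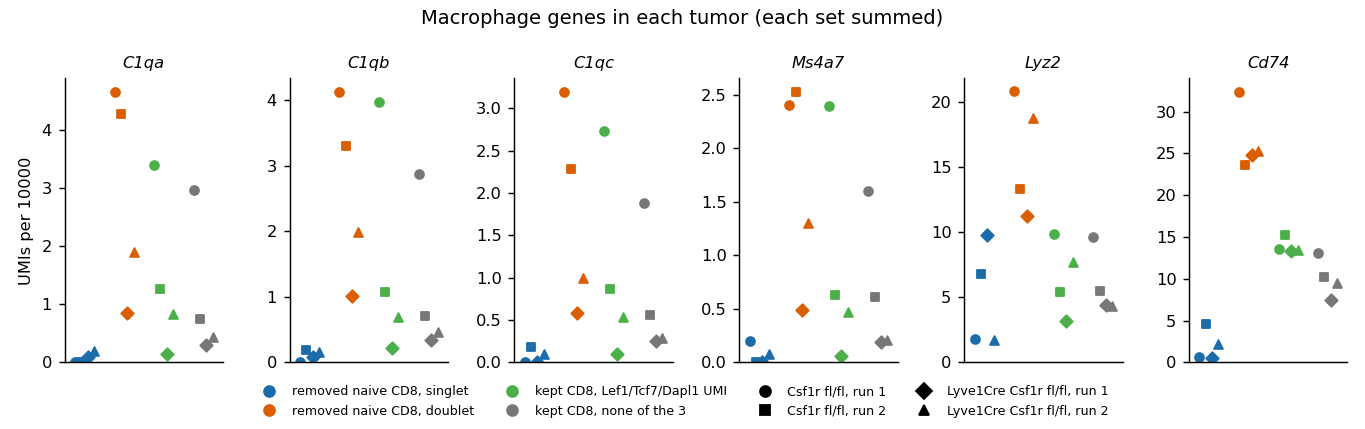
UMIs per 10000 on linear axes of the macrophage genes C1qa, C1qb, C1qc, Ms4a7 and Lyz2 and of Cd74, 1 point per tumor, in removed singlets, removed doublets and both sets of kept CD8+ T cells. C1qa of removed singlets is at 0.195 or below in every tumor, and doublets, which hold cells of both genotypes and are placed by their higher hashtag, lie between 0.850 and 4.65.

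In singlets, 1414 genes could be tested between genotypes and 0 passed in edgeR, with 58 at an unadjusted p under 0.05. Of 17 tested genes of the naive T cell list, gate genes included, 16 had a positive log2 fold change, with a median of 0.54, and 0 passed. Over all genes 734 of 1414 were positive. The genes of the list were measured in the same 4 tumors and are not independent of each other. S1pr1 had a log2 fold change of 1.01 ± 0.46 (SE) and Klf2 0.29 ± 0.66. With errors of this size, a difference of less than about 1 log2 unit in a naive gene was not detectable from 16 to 698 cells a tumor. The Csf1r fl/fl tumors differed from each other in Klf2, at 8.69 and 1.64 UMIs per 10000, by more than the genotypes did.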

How the data were processed

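Per the labels and the study's methods, the authors aligned reads to mm10 with Cell Ranger 6.0.1 and demultiplexed TotalSeq hashtags. The deposited raw tables hold UMI counts per gene and per hashtag. The deposited normalized table holds a score per gene and cell (whole-number corrected counts from SCTransform), and only its cell names were used, to tell kept from removed cells. Members and gene lists were chosen with earlier results of these data known. Doublets were called from hashtags with HTODemux (Seurat 5.3.0, CLR by cell, quantile 0.99, each run apart), which cannot see doublets of cells with the same hashtag.

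Counts were summed per tumor and tested with edgeR 4.0.16 (R 4.3.3, filterByExpr, TMM, quasi-likelihood, Benjamini-Hochberg over all genes tested). Tumors needed 10 cells per set. The 4 tumors come from separate mice. Ratios to kept cells used CPM with a pseudocount of 10, for genes with at least 10 UMIs over both sets. Cells were thinned to 1000 UMIs for shares. Gene spans are from GENCODE M21.

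The named genes were those of 24 lists, the 12 largest rises and falls past the threshold with 1 sign in every tumor, and the 12 highest and lowest ratios to kept cells at 100 CPM or more, without ribosomal and gate genes. Some of these genes are not reported here. Other genes were chosen after their values were seen. The run number pairs samples, since tumors of a run shared a Chromium run, and their deviations from the genotype means correlated at 0.236. With 2 tumors a genotype these deviations mirror each other, so both runs must give the same value. The genotype fit reported first did not use this pairing. On simulated counts for the genotype comparison, 16 of 95 genes changed by 1 log2 unit and 71 of 94 changed by 2 were recovered, with 6 false calls. The simulation took its depth from all gated cells, doublets included, with the same spread for every gene and no effect of the run. It therefore does not describe the fit on singlets or the error rate of the reported calls. DESeq2 1.42.0 was an alternative.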

Additional observations from a re-analysis of the deposited data

How the results depend on the processing

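For the genotype comparison (7 genes), DESeq2 called 35, no filter on low counts 111, at least 2 UMIs of the naive genes 1, S100a8 and S100a9 under 10 per 10000 0 (591 at an unadjusted p under 0.05), the run as replicate block 518 and singlets alone 0. A hashtag ratio of 10 called 7 genes, none of them among the first 7. Leaving out 1 tumor gave 0 to 455. For CD8+ against CD4+ cells (36 genes), no filter gave 130, the stricter S100a8 and S100a9 limit 13, no replicate block 0 and singlets alone 0. Leaving out 1 tumor gave 27 to 136, highest without the Lyve1Cre Csf1r fl/fl run 1 tumor. DESeq2 called 24. A hashtag ratio of 10 left 1 tumor with enough cells for this comparison and was not run, and the Csf1r fl/fl run 1 tumor is not in it. None of the genes named for the largest changes past the threshold changed sign under an alternative in which it could be tested. They had been chosen for 1 sign in every tumor, and the alternatives reused the same cells or part of them. A stable sign was therefore likely beforehand. In many of these checks the genes no longer passed the threshold. Signs of list genes that did not pass could differ in singlets, such as Ccr7 between genotypes (0.62 over all gated cells, -0.41 in singlets).

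A limit of 3% mitochondrial UMIs left 607 cells. The share from the Lyve1Cre Csf1r fl/fl run 2 tumor (77.6%) was 91.1% at a hashtag ratio of 10, 80.4% with 2 naive UMIs, 71.3% under 3% mitochondrial UMIs and 91.4% in singlets. The effector list's median log2 ratio to kept cells, averaged over tumors (-0.94), was -1.76 at a hashtag ratio of 10, -2.13 with removed and kept cells both limited to singlets and -1.39 in thinned cells. The naive list's (1.43) was 2.12 with both limited to singlets. Singlet values were chosen after seeing the data. Depth limits the singlets of 3 tumors, with 16 to 31 cells each. The causes of these differences were not tested.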
